A study of Mus musculus with 9 samples.

Results

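Genes of the Hippo-YAP pathway were followed in mouse skin after deletion of *Supt6*. The 10 members were given by name: the co-activators *Yap1* and *Wwtr1* (TAZ), their DNA-binding partners *Tead1* and *Tead3*, the kinases *Lats1* and *Lats2*, the regulators *Ajuba* and *Amotl2*, and the secreted target-gene products *Ccn1* (CYR61) and *Ccn2* (CTGF). All 10 are among the 17943 genes of the deposited table, and all 10 were among the 16426 genes tested.

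The study asked what the transcription elongation factor SPT6, encoded by *Supt6*, does in the epidermis. RNA sequencing was performed on skin from 9 mice, 1 library per mouse, taken on day 10 after the last injection. The 5 control mice carry floxed *Supt6* alleles (*Supt6* fl/fl) without Cre and received corn oil, and the sample labels call them WT. The other 4 were *Supt6*-KO mice (K14-CreERT; *Supt6* fl/fl), which received tamoxifen by intraperitoneal injection and are labelled as a *Supt6* knockdown. The K14 (keratin 14) promoter drives the inducible Cre in basal keratinocytes, so that recombination concerns these cells and their progeny, and dermal, vascular and immune cells keep their alleles. Per the paper, the sequenced *Supt6*-KO skin was lesional and the control skin was matched to it. The floxed alleles are shared by both groups, whereas the Cre transgene, tamoxifen and lesional skin are present only in the *Supt6*-KO group. Effects of deletion, Cre, tamoxifen and the lesion therefore cannot be told apart. The tissue is labelled ear, whereas the methods of the study describe dorsal skin, and both keratinocyte markers (*Krt14*, *Krt10*) and cartilage markers (*Acan*, *Col2a1*) were measured in it. The libraries held between 29627341 and 30967107 estimated counts.

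In the Hippo pathway, the kinases MST1/2 (encoded by *Stk4* and *Stk3*) activate LATS1/2, which phosphorylate YAP and TAZ and keep them in the cytoplasm. When the kinases are less active, YAP and TAZ enter the nucleus and bind TEAD proteins, through which they activate genes such as *Ccn1*, *Ccn2*, *Amotl2* and *Lats2*, the last of which feed back on the pathway. In skin, nuclear YAP is known from basal keratinocytes, where it sustains proliferation.

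TEAD proteins recognise the hexamer GGAATG, which reads CATTCC on the other strand. The promoter stretches below show where these letters lie upstream of the members' starts. They were read from RefSeq promoter windows of 300 bases on GRCm38.p6, written 5′ to 3′ on the strand of the gene, with the hexamer in capitals. *Yap1* lies on the reverse strand (chr9:8004720-8004749), as do *Wwtr1* (chr3:57576029-57576058), the first and the second of 3 annotated starts of *Tead3* (chr17:28350970-28350999 and chr17:28350701-28350730), *Ajuba* (chr14:54577819-54577848) and *Ccn1* (chr3:145650071-145650100). *Amotl2* lies on the forward strand (chr9:102717727-102717756).
Yap1: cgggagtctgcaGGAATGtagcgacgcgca
Wwtr1: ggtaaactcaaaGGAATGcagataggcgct
Tead3, first start: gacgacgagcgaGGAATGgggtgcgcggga
Tead3, second start: ccgggctCATTCCgtaCATTCCggccatcc
Ajuba: aCATTCCacagtgcccctccgcgCATTCCa
Amotl2: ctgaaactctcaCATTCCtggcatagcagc
Ccn1: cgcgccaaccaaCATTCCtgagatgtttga

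*Tead1* and *Ccn2* had no window in the RefSeq table used. Of the 8 members with one, 7 held the hexamer on either strand, and *Lats1* did not. Over all annotated starts, 9 of the 12 windows of these members held it, the others being those of *Lats1*, the third start of *Tead3* and the second start of *Lats2*. Among the 13004 tested genes with a window, 15.1% held it, and among the genes lower in *Supt6*-KO skin 16.8% did. The first base of the hexamer lay at position -141 of *Yap1*, -136 or -170 of *Wwtr1*, depending on which of its 2 starts is used, -65 of *Amotl2* and -103 of *Ccn1*. Positions are counted from the transcription start on which each window was placed. For *Amotl2* the window (chr9:102717554-102717853) lies inside the annotated gene (chr9:102717091-102733418), so its match is not upstream of the whole gene. The match of *Lats2*, whose sequence is not shown, lay after its first start. The heptamer TGANTCA, read by AP-1 factors that often share enhancers with TEAD, was in none of the 8 members' windows and in 7.24% of the tested genes'. These are matches of letters, not measurements of binding.

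*Supt6* itself was measured first as a check of the labels. Expression is given as CPM, the count relative to library size, scaled by the trimmed mean of M-values (TMM). *Supt6* stood at 74.5, 56.6, 63.6, 91.1 and 96.7 CPM in the control mice and at 28.6, 24.1, 21.9 and 28.4 CPM in the *Supt6*-KO mice. The groups did not overlap (log2 fold change -1.57, SE 0.18, edgeR adjusted p = 1.3e-05). With the trend over transcript length taken out, the log2 fold change of *Supt6* was -0.91. The remaining level in TMM-scaled CPM was 33.7% of the control mean, in skin that also holds cells outside the reach of K14-CreERT.

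Of the 10 members, 8 were lower in *Supt6*-KO skin at an adjusted p under 0.05, and none was higher. The remaining 2, *Wwtr1* and *Lats1*, did not pass. The comparison was broad, as 36.8% of all genes tested were lower and 34.1% higher, and 71.0% in all passed the threshold. The log2 fold changes of the members ran from -2.52 to -0.17 with a median of -0.92, against -0.07 over all genes tested. At least 2-fold lower were 4 members (*Tead1*, *Ccn2*, *Amotl2* and *Ccn1*) and 24.9% of all genes tested. For 7 members the groups stood apart, compared with 31.8% of all genes tested that were lower without overlap. Within the whole table *Tead1* stood far down, with 5.79% of genes having a lower fold change, while *Ccn2*, *Amotl2* and *Ccn1* had between 19.6% and 21.4% below them. *Wwtr1* and *Lats1* lay near the middle, with 47.4% and 47.2% of genes below. The count of lower members was 7 or 8 when any single mouse was left out, and 8 without *Supt6*-KO mouse 4. In bulk skin, fewer cells of a type and less RNA per cell cannot be told apart.

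**Figure D1:**
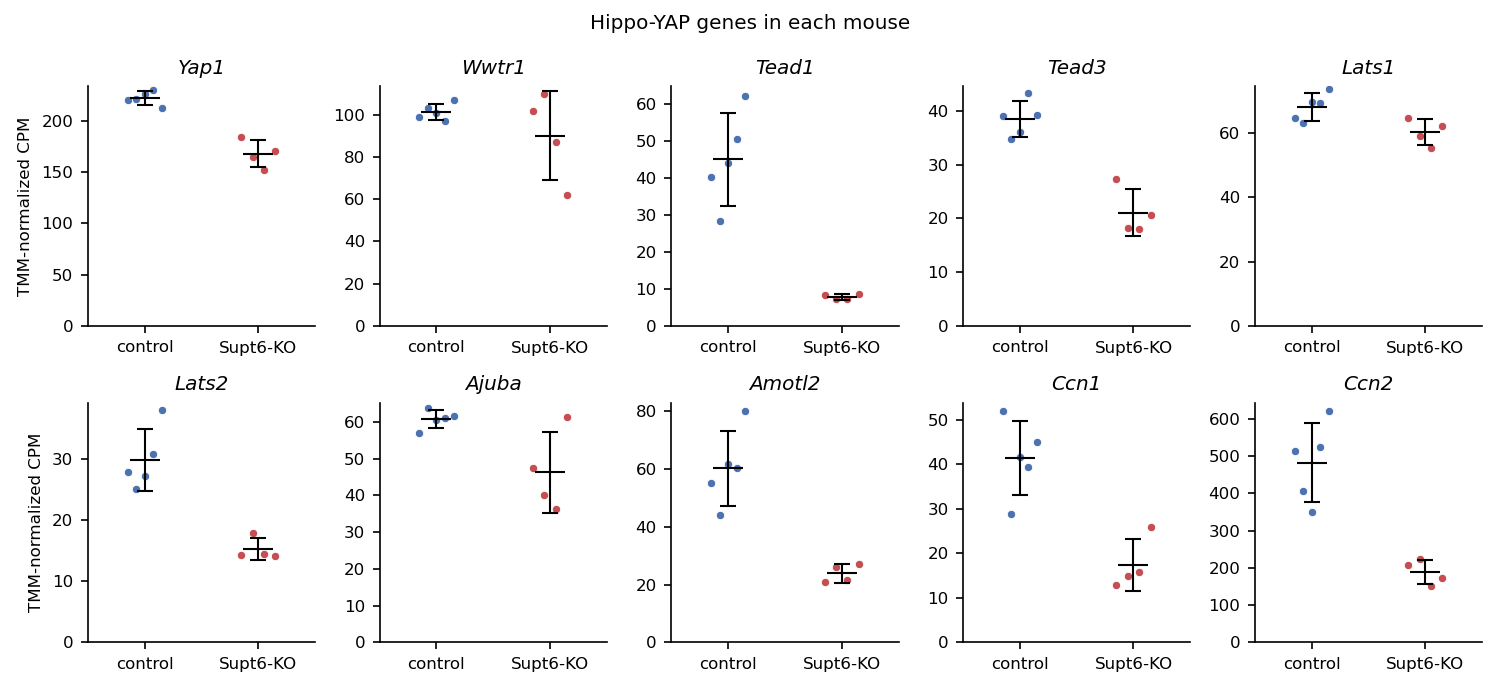
Levels of the 10 members in each mouse, in TMM-scaled CPM, with 5 control and 4 *Supt6*-KO mice as points and the group mean with its SD. The groups stand apart for *Tead1*, *Tead3*, *Lats2*, *Amotl2*, *Ccn1*, *Ccn2* and *Yap1*, and overlap for *Wwtr1*, *Lats1* and *Ajuba*.

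*Ccn1* and *Ccn2*, which encode secreted matricellular factors and are widely used as readouts of YAP and TAZ, both fell at the RNA level. *Ccn2* (chr10:24595442-24598683) was measured at 513, 406, 349.7, 523 and 620.1 CPM in the control mice and at 208, 223, 152 and 173 CPM in the *Supt6*-KO mice. All 4 *Supt6*-KO mice were below the lowest control mouse, and their mean was 39.1% of the control mean (log2 fold change -1.35, SE 0.19, edgeR adjusted p = 7.5e-05). *Ccn1* (chr3:145646971-145649985) stood at 51.8, 28.9, 41.7, 39.4 and 44.9 CPM in the control mice, against 12.9, 14.8, 15.7 and 25.8 CPM in the *Supt6*-KO mice. *Supt6*-KO mouse 4 came close to the lowest control mouse without reaching it (log2 fold change -1.25, SE 0.22, edgeR adjusted p = 0.00038). Without that mouse the log2 fold change of *Ccn1* was -1.52.

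*Amotl2* and *Lats2* are targets of YAP that also restrain it, the first by holding YAP at junctions and the second by phosphorylating it. *Amotl2* (chr9:102717091-102733418) was at 55.2, 44.1, 61.8, 60.3 and 80.1 CPM in the control mice and at 20.8, 26.1, 21.5 and 27.1 CPM in the *Supt6*-KO mice. The *Supt6*-KO mice lay close together and all below the control mice (log2 fold change -1.34, SE 0.17, edgeR adjusted p = 3.2e-05). For *Lats2* (chr14:57689662-57746212) the control mice gave 27.9, 25.1, 27.2, 30.8 and 38.0 CPM and the *Supt6*-KO mice 14.3, 17.9, 14.5 and 14.2 CPM. Its level fell to 51.2% of the control mean, again without overlap (log2 fold change -0.97, SE 0.15, edgeR adjusted p = 0.00012). *Lats1* (chr10:7681200-7716461), the other LATS kinase, averaged 68.2 ± 4.24 CPM (SD, n = 5) in control and 60.4 ± 4.02 CPM (SD, n = 4) in *Supt6*-KO skin. Its groups overlapped, and the difference did not pass the threshold (log2 fold change -0.17, SE 0.10, edgeR adjusted p = 0.13).

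The TEAD factors carry YAP and TAZ to DNA. *Tead1* (chr7:112679356-112906784) showed the largest fold change of the 10 members in this fit. It was at 40.2, 28.3, 44.1, 50.5 and 62.1 CPM in the control mice and 8.44, 7.15, 7.18 and 8.55 CPM in the *Supt6*-KO mice. The *Supt6*-KO mice were tightly grouped at 17.4% of the control mean, while the control mice spread widely (log2 fold change -2.52, SE 0.21, edgeR adjusted p = 2.1e-06). With the trend over transcript length taken out, *Tead1* was at -1.51, beside -1.53 for *Ccn1* and -1.48 for *Ccn2*. *Tead3* (chr17:28331671-28350805) was at 39.0, 34.7, 36.0, 43.3 and 39.2 CPM in control and at 27.4, 18.2, 18.0 and 20.6 CPM in *Supt6*-KO mice. It fell less than *Tead1*, to 54.8% of the control mean, without overlap (log2 fold change -0.87, SE 0.14, edgeR adjusted p = 0.00022). Of the other TEAD genes, *Tead2* was lower (log2 fold change -0.98, edgeR adjusted p = 0.00071) at a low level of 3.87 CPM in control skin, and *Tead4* gave 0.12 (edgeR adjusted p = 0.67).

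The co-activators themselves differed less. *Yap1* (chr9:7931999-8004638) was measured at 220.2, 221, 226, 230 and 212 CPM in the control mice and at 184, 165, 152 and 171 CPM in the *Supt6*-KO mice. The change was modest, to 75.7% of the control mean, but the narrow spread of the control mice kept the groups apart (log2 fold change -0.40, SE 0.11, edgeR adjusted p = 0.0052). *Wwtr1* (chr3:57455644-57575910) was at 98.8, 103, 101, 97.1 and 107 CPM in control and at 102, 109.7, 86.9 and 61.9 CPM in *Supt6*-KO mice. *Supt6*-KO mice 1 and 2 were within or above the control range, and the difference did not pass (log2 fold change -0.17, SE 0.15, edgeR adjusted p = 0.34). *Ajuba* (chr14:54567469-54577661), a LIM-domain protein that binds and inhibits LATS kinases, was at 56.9, 63.8, 60.5, 61.1 and 61.6 CPM in control and at 47.3, 40.0, 36.2 and 61.4 CPM in *Supt6*-KO mice. *Supt6*-KO mouse 4 was at the control level while the other 3 were below it (log2 fold change -0.39, SE 0.15, edgeR adjusted p = 0.031). The call for *Ajuba* was lost in 7 of the 9 fits that left out a mouse (log2 fold change -0.41 to -0.30, edgeR adjusted p 0.051 to 0.084) and with DESeq2 (adjusted p = 0.056).

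Over the 9 mice, a two-sided exact permutation test of mean log2 CPM gave p = 0.0159, the smallest value that 5 against 4 mice allow, for each of the 7 members without overlap. Groups without overlap always give this value, so it restates the lack of overlap. Of all genes tested, 31.8% were lower and 28.9% higher without overlap. The same exact test gave p = 0.0635 for *Ajuba*, p = 0.0476 for *Lats1* and p = 0.317 for *Wwtr1*. The members differed in how they depended on the handling of library composition and transcript length. With library totals in place of TMM, the median of all genes tested moved from -0.07 to -0.76, and all 10 members were called lower. That scaling also changed the split of all calls, of which 48.1% were higher with TMM and 23.6% with library totals. Longer transcripts had relatively lower counts in *Supt6*-KO libraries. The slope of log2 CPM, taken relative to the average of the group means, on log10 transcript length was between 0.508 and 1.594 in the control mice and between -1.138 and -0.588 in the *Supt6*-KO mice. With that trend taken out, 6 members were lower and 1, *Lats1*, was higher (log2 fold change 0.55, edgeR adjusted p = 0.00034). *Tead1*, *Tead3*, *Lats2*, *Amotl2*, *Ccn1* and *Ccn2* were lower under each of the 17 alternatives, whereas *Yap1* was not called with the length trend taken out (log2 fold change -0.11, edgeR adjusted p = 0.35).

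Ratios of related members within a mouse do not depend on the scaling of the library, and 4 pairs were compared. The count of *Tead1* relative to *Tead3* was 1.03, 0.815, 1.22, 1.17 and 1.58 in the control mice and 0.308, 0.392, 0.398 and 0.415 in the *Supt6*-KO mice. The balance moved away from *Tead1* in every *Supt6*-KO mouse (difference of log2 ratios -1.60, SE 0.18, exact permutation p = 0.0159). *Lats1* relative to *Lats2* was 2.32, 2.52, 2.57, 2.25 and 1.94 in the control mice and 4.51, 3.29, 3.81 and 4.41 in the *Supt6*-KO mice. Here the balance moved towards *Lats1*, without overlap (difference of log2 ratios 0.78, SE 0.13, exact permutation p = 0.0159). The ratio of *Yap1* to *Wwtr1* overlapped between the groups (difference of log2 ratios -0.20, SE 0.19, exact permutation p = 0.286), as did that of *Ccn1* to *Ccn2* (0.06, SE 0.33, exact permutation p = 0.857). The longest annotated transcripts have 9964 bases for *Tead1* and 2775 for *Tead3*, and 7209 for *Lats1* and 5191 for *Lats2*, so that the longer gene of the pair was relatively lower in the first case and relatively higher in the second. With the length trend taken out, the log2 fold changes were -1.51 for *Tead1* and -0.90 for *Tead3*, closer to each other than the -2.52 and -0.87 above, and 0.55 for *Lats1* and -0.49 for *Lats2*.

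**Figure D2:**
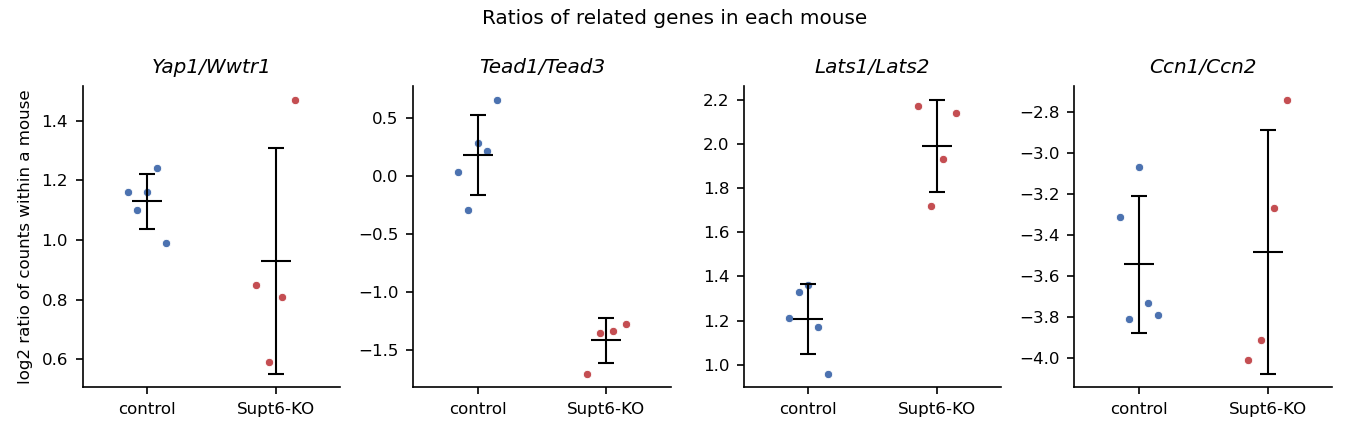
Log2 ratio of counts within each mouse for 4 pairs of related members, with the group mean and SD (5 control and 4 *Supt6*-KO mice). *Tead1*/*Tead3* runs from -0.29 to 0.66 in control and from -1.70 to -1.27 in *Supt6*-KO mice, *Lats1*/*Lats2* from 0.96 to 1.36 and from 1.72 to 2.17, and the other pairs overlap.

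To compare levels between genes, TPM values, which account for transcript length, were used for the 5 control mice. *Ccn2* was the most abundant member at 376 ± 128 TPM (SD, n = 5), followed by *Yap1* at 91.8 ± 10.0 TPM. *Ccn1* (38.9 TPM), *Wwtr1* (36.4 TPM), *Ajuba* (30.3 TPM), *Tead3* (26.9 TPM) and *Amotl2* (25.2 TPM) formed the middle of the order. *Lats1* (15.8 TPM), *Lats2* (10.7 TPM) and *Tead1* (7.68 ± 3.05 TPM) were at its lower end. Among neighbours in this order, the ranges over mice stood apart only between *Ccn2* and *Yap1* and between *Yap1* and *Ccn1*. The deposited TPM values include a single *Supt6*-KO mouse, mouse 4, in which *Ccn2* (66.2 TPM) and *Yap1* (35.5 TPM) also led and *Tead1* (0.71 TPM) was last.

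Of the wider pathway, 45 of 47 listed genes were tested, of which 28 were lower, 9 were higher and 8 did not pass. Their median log2 fold change was -0.64. With the length trend taken out, 22 were lower and 13 higher, and with library totals 34 were lower and 3 higher. For comparison, 36.8% of all genes tested were lower, 34.1% higher and 24.9% lower by at least 2-fold. Of the 6 core kinase cassette genes, 2 were higher and 2 lower, shares close to those of all genes tested. *Mob1b*, a co-activator of LATS kinases, averaged 19.3 ± 1.29 CPM in control and 46.8 ± 5.53 CPM in *Supt6*-KO skin (SD, n = 5 and 4) and rose without overlap (log2 fold change 1.28, SE 0.11, edgeR adjusted p = 2.5e-06). Its paralog *Mob1a* rose from 36.3 to 52.4 CPM (log2 fold change 0.53, edgeR adjusted p = 0.006), though with library totals its value was -0.13 (edgeR adjusted p = 0.58). *Nf2*, encoding the scaffold merlin, fell from 78.4 ± 2.40 to 44.2 ± 17.9 CPM (log2 fold change -0.83, edgeR adjusted p = 0.0049), with 68.8 CPM in *Supt6*-KO mouse 4 and at most 45.8 CPM in the other 3. With the length trend taken out *Nf2* was not called (log2 fold change -0.45, edgeR adjusted p = 0.06). *Stk3* was lower with overlap (log2 fold change -0.53, edgeR adjusted p = 0.027) and lost its call in 5 of 17 alternatives. *Stk4* (-0.19, edgeR adjusted p = 0.19) and the MST partner *Sav1* (0.11, edgeR adjusted p = 0.39) did not pass. *Stk4* was called higher with the length trend taken out (0.28, edgeR adjusted p = 0.045) and lower with library totals (-0.87, edgeR adjusted p = 0.00085), and *Sav1* was called lower with library totals (-0.57, edgeR adjusted p = 0.006).

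Among the 24 upstream regulators tested, 17 were lower, 6 were higher and 1, *Taok1*, did not pass (log2 fold change -0.01). Of all genes tested, 36.8% were lower and 34.1% higher. With the length trend taken out, 13 of the 24 were lower and 7 higher, and with library totals 18 were lower and 2 higher. *Taok1* was called in opposite directions by the alternatives, at 1.17 with the length trend taken out (edgeR adjusted p = 0.00023) and -0.73 with library totals (edgeR adjusted p = 0.00083). *Dchs1* and *Fat4*, which encode a ligand and receptor pair of giant cadherins, went from 4.38 to 0.719 CPM and from 3.74 to 0.886 CPM (log2 fold changes -2.60 and -2.08). Both were scarce. For *Fat4*, control mouse 5 was at 8.89 CPM and the other control mice between 1.89 and 3.38 CPM, and without mouse 5 the log2 fold change was -1.47 (edgeR adjusted p = 0.00033). *Fat4* was not called with the length trend taken out (log2 fold change -0.57, edgeR adjusted p = 0.14). The TAO kinase gene *Taok3* and the LATS activator *Wwc2* (42.7 to 13.7 CPM) were also lower, by -2.08 and -1.63 on the log2 scale. In the other direction, the polarity gene *Crb3* rose from 14.9 to 49.2 CPM (log2 fold change 1.73, edgeR adjusted p = 3.9e-06) and the MST-binding scaffold *Rassf1* from 31.3 to 75.6 CPM (1.27, edgeR adjusted p = 2.7e-06). *Stk25* (0.83) and *Strn3* (0.82), the latter a subunit of the STRIPAK phosphatase complex that opposes MST kinases, were also higher, though each was 0.13 and not called with library totals. Other STRIPAK subunit genes of the list, *Strn* (-0.68), *Strn4* (-0.65) and *Ppp2r1a* (-0.78), were lower. Beside *Crb3*, the polarity genes *Patj* (-1.43), *Scrib* (-1.19) and *Mpp5* (-0.36) were lower and *Dlg1* (0.44) was higher.

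Of 15 cofactors and inhibitors of YAP and TAZ tested, 9 were lower, 1 was higher and 5 did not pass, where 36.8% of all genes tested were lower and 34.1% higher. With the length trend taken out, 8 were lower and 3 higher. The paralogs of *Amotl2* moved with it. *Amotl1* was at 118, 96.0, 112, 126 and 138 CPM in the control mice and at 24.0, 19.6, 18.2 and 31.9 CPM in the *Supt6*-KO mice. The groups were far apart (log2 fold change -2.33, edgeR adjusted p = 1.4e-06). *Amot* went from 16.6 to 3.12 CPM (-2.42, edgeR adjusted p = 4.1e-06), so that all 3 angiomotin genes were lower. The TEAD co-factor *Vgll2* (-2.37) and *Btrc* (-1.29), the ubiquitin ligase subunit that recognises phosphorylated YAP, were lower as well. The 14-3-3 gene *Ywhaq*, whose family holds phosphorylated YAP in the cytoplasm, rose from 202 to 428 CPM (1.08, edgeR adjusted p = 9.2e-05) but gave 0.41 (edgeR adjusted p = 0.076) with library totals.

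Target genes outside the 10 members mostly shared the direction of *Ccn1* and *Ccn2*. Of 18 genes in a YAP/TAZ target signature, 14 were lower, 1 was higher and 3 did not pass, and 10 were lower by at least 2-fold, beside 36.8% lower, 34.1% higher and 24.9% lower by at least 2-fold among all genes tested. Their median log2 fold change was -1.45. *Ptpn14*, a phosphatase that is both a target and an inhibitor of YAP, was at 81.4, 50.5, 87.6, 104 and 125 CPM in the control mice and at 9.82, 9.88, 6.59 and 7.18 CPM in the *Supt6*-KO mice. It showed the largest change of the signature (log2 fold change -3.42, SE 0.26, edgeR adjusted p = 1.2e-06). The RNA-binding protein gene *Rbms3* (-3.25), the growth factor gene *Tgfb2* (-2.61) and the guanine nucleotide exchange factor gene *Arhgef17* (-2.38) followed, each without overlap. *F3*, encoding tissue factor and the most abundant gene of the signature, went from 227 to 71.1 CPM (-1.67, edgeR adjusted p = 3.3e-06).

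The exception was the stress-response gene *Gadd45a*, at 13.7, 14.2, 11.5, 13.4 and 10.5 CPM in the control mice and 48.0, 52.8, 46.3 and 27.6 CPM in the *Supt6*-KO mice. It rose without overlap (log2 fold change 1.79, edgeR adjusted p = 6.9e-06). *Ankrd1*, a muscle-enriched ankyrin-repeat gene commonly used as a YAP readout, gave -0.54 (edgeR adjusted p = 0.13), and was called lower in 3 of 17 alternatives, which were library totals, the length trend taken out (-0.82, edgeR adjusted p = 0.039) and *Supt6*-KO mouse 4 left out (-0.80, edgeR adjusted p = 0.029). Another target gene, *Nuak2*, gave -0.07 (edgeR adjusted p = 0.59). *Foxf2* was near the limit of detection in both groups (log2 fold change -1.83, edgeR adjusted p = 0.061) and was called lower in 4 of 17 alternatives. The count of lower genes in the signature was 14 with the length trend taken out, 17 with library totals and 15 without *Supt6*-KO mouse 4.

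**Figure D3:**
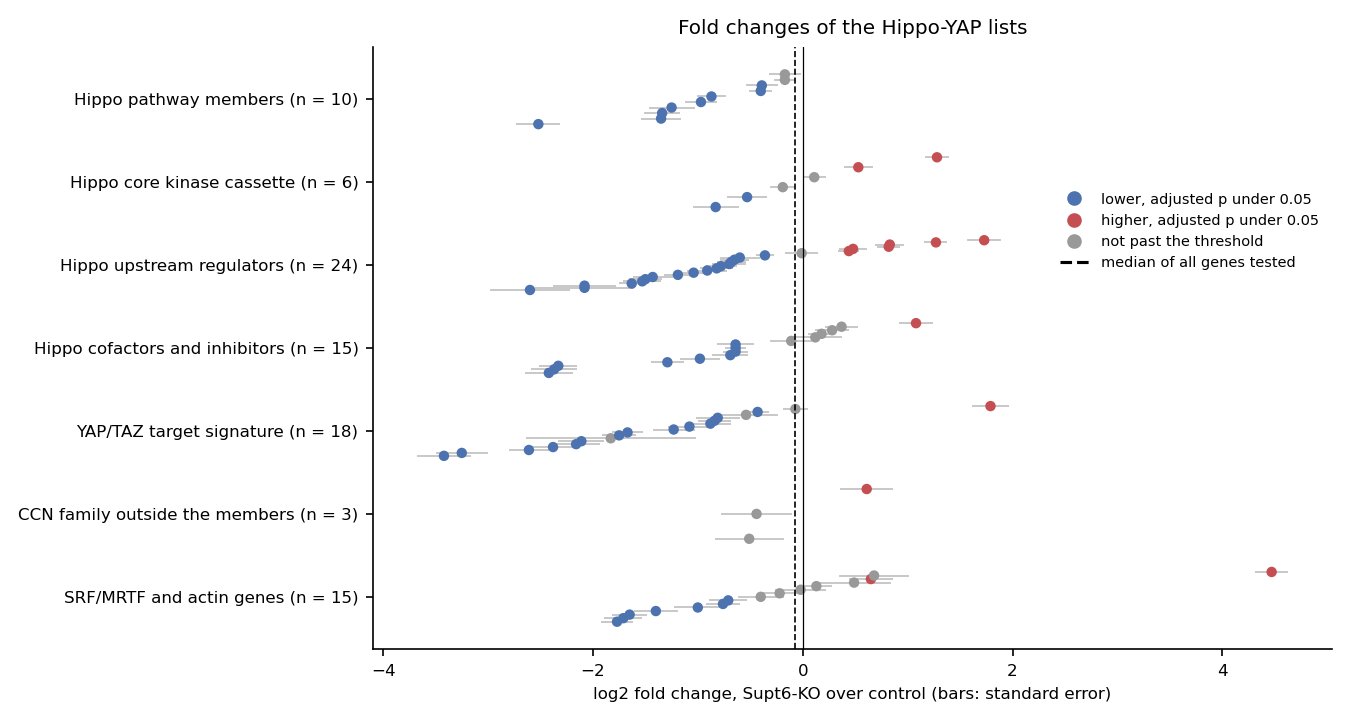
Log2 fold change (*Supt6*-KO over control, bars are SE) of each tested gene in the Hippo-YAP lists, coloured by whether it passed an adjusted p of 0.05 and in which direction. Lower genes outnumber higher ones among the members (8 and 0), the upstream regulators (17 and 6), the cofactors (9 and 1) and the targets (14 and 1), while the core cassette has 2 of each among 6. Of all genes tested, 36.8% were lower and 34.1% higher.

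None of the other CCN genes was called lower in this fit, although *Ccn3* and *Ccn4* were each called lower in 2 of 17 alternatives. Both were lower with library totals, and 1 CCN gene was lower without *Supt6*-KO mouse 1 and 1 without *Supt6*-KO mouse 3. *Ccn3* (-0.44, edgeR adjusted p = 0.26) and *Ccn4* (-0.51, edgeR adjusted p = 0.18) did not pass. *Ccn5* was slightly higher with overlap (0.61, edgeR adjusted p = 0.046), a call that was lost in 9 of 17 alternatives and had a value of -0.13 with library totals. *Ccn6* was too low to be tested. Serum response factor (SRF) and its MRTF co-activators control many actin genes and share targets with YAP. Of 15 such genes, 7 were lower, 2 were higher and 6 did not pass, where 36.8% of all genes tested were lower and 34.1% higher. The cytoskeletal gene *Tpm1* went from 566 to 165 CPM (-1.77), and the co-activator genes *Mrtfb* (-1.71) and *Mrtfa* (-1.65) and the focal adhesion gene *Zyx* (-1.40) were lower too. *Fhl2*, a LIM-domain cofactor of SRF, was at 3.85, 3.12, 2.82, 2.52 and 2.47 CPM in the control mice and at 66.1, 62.2, 58.6 and 74.6 CPM in the *Supt6*-KO mice. Its level stood far above the control mice in all 4 *Supt6*-KO mice (log2 fold change 4.47, SE 0.16, edgeR adjusted p = 2.3e-08). *Tagln*, a smooth muscle actin-binding protein gene, was higher with overlap (0.65, edgeR adjusted p = 0.015) and was not called in 5 of 17 alternatives, with -0.09 under library totals.

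The members moved alongside changes in markers of several cell types of the skin. For comparison with the marker counts, 36.8% of all genes tested were lower and 34.1% higher. The members' summed level was 1168, 1018, 1019, 1205 and 1339 CPM in the control mice and 689, 681, 559 and 626 CPM in the *Supt6*-KO mice. The 8 basal keratinocyte markers, led by *Krt14*, summed to 12269, 12506, 12142, 14042 and 12573 CPM in control and 8500, 5921, 7112 and 14176 CPM in *Supt6*-KO mice, with 7 of the 8 lower. The suprabasal markers, led by *Krt10*, summed to between 20481 and 22318 CPM in control mice and to 44354, 43328, 41850.1 and 21708 CPM in *Supt6*-KO mice, with 4 of 7 higher. With the length trend taken out, 6 of the 8 basal markers were lower, and of the 7 suprabasal markers 4 were higher and 1 lower. In both sums *Supt6*-KO mouse 4 lay at or near the control level, but several of its single markers did not. *Krt14* was at 9613 CPM in that mouse and at most 3809 CPM in control mice, while its *Krt15* (239 CPM) and *Col17a1* (112 CPM) were far below every control mouse. Its *Krt10* was low at 7775 CPM, while *Krt1*, at 7264 CPM, was well above the control maximum of 1028 CPM. Without *Krt14* the basal sum was 3769.7, 2808, 3150.5 and 4563 CPM in *Supt6*-KO mice and at least 8697 CPM in control mice. Without *Krt10* the suprabasal sum was at least 13933 CPM in *Supt6*-KO mice and at most 7582 CPM in control mice, so that neither sum then overlapped. The member sum of mouse 4 was within the range of the other *Supt6*-KO mice.

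Markers of dermal and other cells also differed. Their counts below stand against 36.8% lower and 34.1% higher among all genes tested. Endothelial markers, led by *Pecam1*, were at 45.3% of the control sum (7 of 8 lower), and pericyte and smooth muscle markers, led by *Des*, at 42.2% (6 of 7 lower). With a replicate block, *Cldn5* and *Acta2* lost their calls, which left 6 of the 8 and 5 of the 7 lower. With the length trend taken out, 5 of the 8 endothelial markers and 6 of the 7 pericyte and smooth muscle markers were lower. *Des* is also among the skeletal muscle markers, and without it the pericyte and smooth muscle sum was at 55.4%. Fibroblast markers, led by *Col3a1*, were at 50.4% with overlap and, without *Col3a1*, at 33.2% without overlap (4 of 8 lower and 1 higher, *Fbln1*, whose call was lost in 7 of 17 alternatives). Skeletal muscle markers, led by *Acta1*, were at 18.6% (7 of 7 lower), and cartilage markers, led by *Acan*, at 11.2% (6 of 6 lower). Leukocyte markers, led by *Lyz2*, were at 492% of the control sum (6 of 9 higher, 1 lower). With library totals 3 of the 9 were higher and 2 lower, and *Adgre1* kept its call in 9 of 17 alternatives. *Lyz2* made up most of that sum, which was at 149% without it. The pan-leukocyte gene *Ptprc* gave 0.24 (edgeR adjusted p = 0.21), and the T-cell gene *Cd3e* fell to 5.65% of its control mean. Adipocyte markers, led by *Fabp4*, were at 100.5% and without it at 52.0% (4 of 6 lower, and 6 of 6 with the length trend taken out). No marker was at 0 in all mice. *Yap1*, *Ccn1* and *Ccn2* are expressed in several of these cell types, and the part of each cell type in the members' change was not tested.

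Across the 9 mice, the genes whose log2 CPM followed *Yap1* most closely included *Ubl7* (Pearson r = 0.996) and *Pak1* (0.991), among 9537 genes with a mean of at least 10 CPM. For *Ccn2* they were *Spats2l* (0.990), *Garre1* (0.990) and *Dusp18* (0.986). The points share the split between groups, and 17.9% and 18.3% of those genes had an r above 0.9 with *Yap1* and *Ccn2*, so that these values describe the likeness of pattern only.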

How the data were processed

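Per the labels and methods, reads were aligned to mm10 with Bowtie2 2.3.4.3 and quantified per gene with RSEM 1.3.1. The submitters' processing notes also list HISAT and DESeq2 1.4.5. The annotation release is not given in the sources used here. The authors deposited estimated counts for 9 mice, of which 9.0% of values were not whole, and TPM values for 6 mice (5 control, 1 *Supt6*-KO). Gene IDs were matched to RefSeq GRCm38.p6, and 32 of 17943 did not match.

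Estimated counts were rounded. Genes with fewer than 10 counts summed over the 9 mice were left out, and 16426 were tested with edgeR 4.0.16 (quasi-likelihood test, TMM, two-sided, Benjamini-Hochberg over all genes tested) in R 4.3.3. A gene was called at an adjusted p under 0.05. Single values and ratios were tested with two-sided exact permutation tests over mice, and deviations are SDs. The number of counts limits precision for scarce genes, and p-values set the difference between the groups against the spread between mice. Between mice of a group, at most 0.58% of counts over 100 were equal.

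The members and lists were chosen with earlier results of these data known. All members, *Supt6* and the core cassette were named, and from each other list up to 4 higher and 4 lower genes with the largest fold change without overlap and at least 1 CPM. Genes that did not pass, *Tead2*, *Tead4*, *F3*, *Ccn5*, *Tagln*, *Cldn5*, *Acta2*, *Col2a1* and markers other than the most abundant were named after their values were seen. The same holds for *Strn*, *Strn4*, *Ppp2r1a*, *Patj*, *Scrib*, *Mpp5* and *Dlg1*. Each marker list gives its most abundant gene, and sums without that gene were added after seeing the data. The 3 genes most alike in pattern were taken for *Yap1* and *Ccn2*, of which 1 is not reported here. The fit was repeated leaving out each mouse or the 50 most abundant genes, with a replicate block, with the trend over transcript length taken out, with upper-quartile factors or library totals in place of TMM, under 2 other filters on low counts, and in DESeq2 1.42.0. The edgeR step was tested on simulated data.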

Additional observations from a re-analysis of the deposited data

Results flagged for a closer look

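By Dixon's test, 4 values lay apart from the other mice of their group, among 68 groups of values examined, where about 1 in 20, or 3.4, would be expected by chance. *Lats2* was at 17.9 CPM in *Supt6*-KO mouse 2, with a group median of 14.4 CPM. The summed suprabasal keratinocyte markers were at 21708 CPM in *Supt6*-KO mouse 4, with a group median of 42589 CPM. The summed basal keratinocyte markers were at 14042 CPM in control mouse 4 (median 12506 CPM), and the summed pericyte and smooth muscle markers at 432 CPM in control mouse 5 (median 367 CPM).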

How the results depend on the processing

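*Supt6*, *Tead1*, *Tead3*, *Lats2*, *Amotl2*, *Ccn1* and *Ccn2* kept their direction and their side of the threshold under all 17 alternatives. With the length trend taken out, *Yap1* was -0.11 and *Ajuba* -0.27 and neither was called, *Wwtr1* was 0.22 (adjusted p = 0.24), *Lats1* was 0.55, 1 member was higher, *Supt6* was -0.91, and 13 other Hippo genes were higher and 22 lower in place of 9 and 28. With library totals, *Wwtr1* was -0.90 and *Lats1* -0.87, both called lower, 2771 genes in the whole table were higher in place of 5608, and 3 in place of 9 other Hippo genes. With upper-quartile factors *Lats1* was -0.26 (adjusted p = 0.031), and with DESeq2 *Ajuba* was -0.33. When each mouse was left out in turn, *Ajuba* ran from -0.57 to -0.30 and passed only without control mouse 1 or *Supt6*-KO mouse 4. Over the same fits *Yap1* ran from -0.45 to -0.36, the log2 ratio of *Yap1* to *Wwtr1* from -0.38 to -0.09 (exact permutation p = 0.036 without *Supt6*-KO mouse 4), and that of *Ccn1* to *Ccn2* from -0.19 to 0.23, changing sign in 4 of 9. The cause of these changes was not tested. Mice with the same number were not treated as pairs in the reported fit. Their mean correlation of deviations was 0.128 over 4 pairs (-0.011 to 0.243), beside -0.025 over 16 pairs with other numbers (-0.227 to 0.255). The ranges overlapped, and so few pairs do not settle whether the numbers mark pairs. With the replicate block over mice 1 to 4, 8 members were lower and 0 higher, *Supt6* was -1.46, and no call changed among the members or the other Hippo and target genes. Among the other listed genes the block ended the calls of *Tagln* (0.57, adjusted p = 0.059), *Cldn5* (-0.52, adjusted p = 0.077) and *Acta2* (-0.44, adjusted p = 0.074), and 5271 genes in the whole table were higher and 5803 lower. The lowest count of a member was 149 (*Tead1*, *Supt6*-KO mouse 2), so depth limits mainly scarce genes such as *Foxf2*, *Fat4* and *Dchs1*.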
